A study of Mus musculus with 8 samples.

Results

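The genes described here are 8 that carry the insulin signal from the receptor to glucose uptake: *Insr*, *Irs1*, *Irs2*, *Pik3r1*, *Pik3ca*, *Akt1*, *Akt2* and *Slc2a4*. They were chosen by name, and all 8 are among the 12551 genes counted. The counts come from RNA sequencing of whole tibialis anterior (TA) muscle, a fast-twitch muscle of the lower hind limb, from 4 WT and 4 KL-/- male mice at 7 weeks of age, 1 library per mouse. KL-/- mice carry a germline deletion of Klotho in every tissue, so the comparison does not separate loss of Klotho in muscle from its loss in kidney or elsewhere. WT and KL-/- mice came from crosses of Klotho+/- parents on a mixed background and were fed standard chow freely. The feeding state at tissue collection was not given in the sources used here. The question addressed was how Klotho loss alters the muscle transcriptome, here for the insulin pathway at the level of mRNA. Protein, phosphorylation and glucose uptake are not measured by these counts.

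Insulin binds the receptor encoded by *Insr*, whose kinase phosphorylates the adaptor proteins IRS1 and IRS2. These recruit phosphoinositide 3-kinase (PI3K), made of a regulatory subunit such as that of *Pik3r1* and a catalytic subunit such as that of *Pik3ca*. The lipid product of PI3K brings AKT kinases to the membrane, where they are activated. In muscle and fat, AKT2 in particular phosphorylates RabGAP proteins that hold back vesicles carrying GLUT4, the glucose transporter encoded by *Slc2a4*, and GLUT4 then moves to the cell surface. AKT also keeps FOXO transcription factors out of the nucleus. Most of the minute-to-minute control in this chain is by phosphorylation and vesicle movement, whereas transcript levels set the amount of each component over longer times.

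Counts on genes summed to between 20860262 and 29273758 per library, and 3 counts correspond to 0.102 to 0.144 CPM, which is a count scaled to the depth of its library. *Kl* is not in the count table, so the counts do not check the genotypes, which the authors determined by PCR. For each library the genotype was taken from its label. By its batch date, KL-/- replicate 3 stands apart from the 7 libraries that share a date, and its batch cannot be told apart from its mouse. KL-/- replicate 2 was the lowest KL-/- library for 6 of the 8 genes, and calls of the 8 genes that changed with a library left out are given below. Summed CPM of 8 myofibre markers, such as *Ckm* and *Atp2a1*, lay between 109200 and 128400 in WT libraries and between 131000 and 161100 in KL-/- libraries, which did not overlap. Of these 8 markers, 1 was called, *Actn3*, which was higher. Fibroblast markers summed to 868 to 3631 CPM in WT and 491 to 1628 CPM in KL-/- muscles, and 1 of 6, *Dcn*, was called lower. Endothelial markers summed to 427 to 630 and 387 to 427 CPM, with 1 of 6, *Kdr*, called lower. Schwann cell markers summed to 40.9 to 77.4 and 80.7 to 96.1 CPM, with 2 of 5 called higher, and of 5 erythroid markers 1, *Alas2*, was in the table, at 3.35 to 9.57 and 3.07 to 9.16 CPM. The part of these shifts in the differences below was not tested. In whole tissue, fewer cells of a type and less RNA per cell cannot be told apart.

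Of the 8 genes, *Pik3r1* and *Akt1* were higher in KL-/- muscle, no gene was lower, and 6 did not pass the test. *Pik3r1* was 2.14-fold and *Akt1* 1.355-fold higher, and both calls depended on single libraries. The test was edgeR's quasi-likelihood test with Benjamini-Hochberg adjustment over all 12551 genes (FDR), and genes were called at an FDR under 0.05. That threshold was passed by 14.0% of all genes, 7.35% higher and 6.67% lower. With 8 genes, 2 calls are too few to set the members apart from this background. The groups did not overlap for 1 of the 8, *Pik3r1*, compared with 19.7% of all genes. With KL-/- replicate 2 left out, 3 of the 8 were called (*Akt1*, *Akt2* and *Pik3r1*), against 21.95% of all genes in that fit, and with KL-/- replicate 3 left out edgeR called none, with 3 at an unadjusted p under 0.05, against 6.07% of all genes called. The median log2 fold change, always KL-/- over WT, was 0.15 for the 8 genes and −0.016 for all genes. Scaling to library totals in place of TMM factors moved the median of all genes from −0.016 to −0.13. Each value below moves down by about the change between these 2 medians. The split of calls over all genes turned from 922 higher and 837 lower to 492 higher and 2127 lower.

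**Figure D1:**
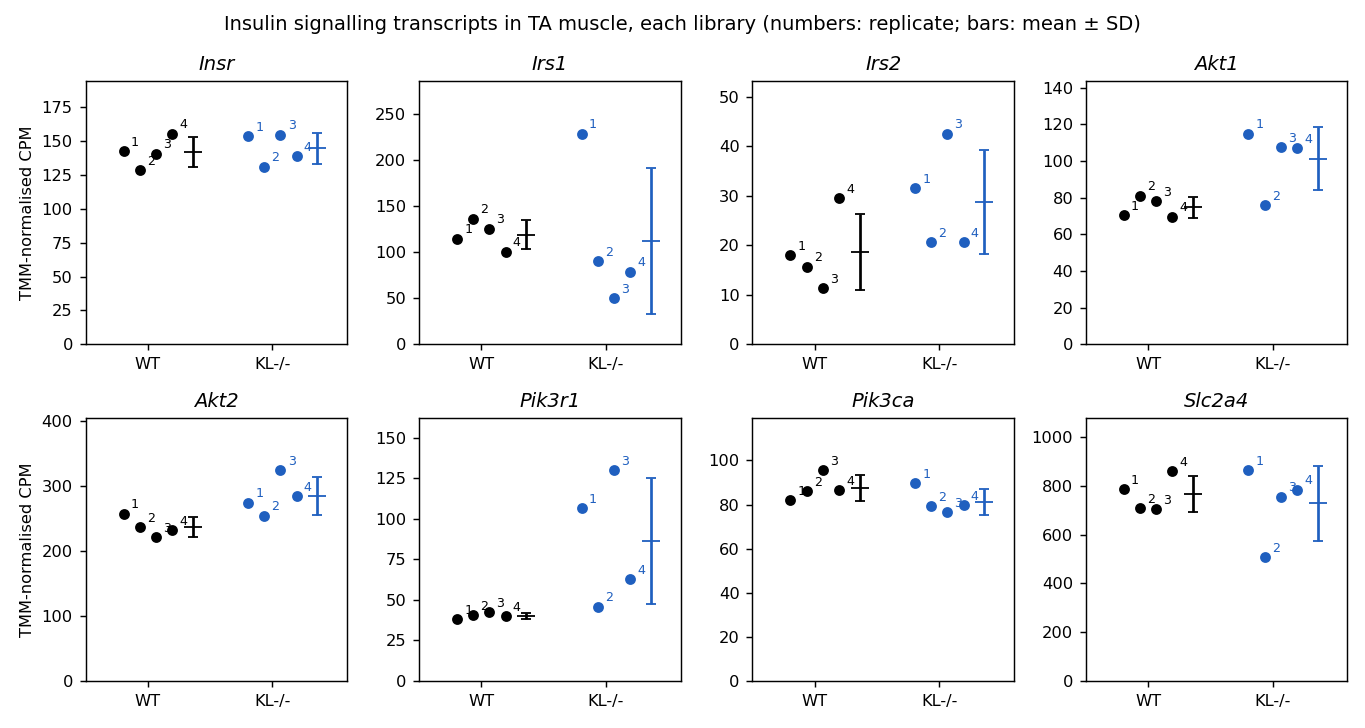
TMM-normalised CPM of the 8 genes in each library, with the 4 WT libraries in black, the 4 KL-/- libraries in blue, replicate numbers beside the points, and bars showing mean ± SD. *Pik3r1* is the 1 gene in which all 4 KL-/- libraries lie above all WT libraries, and KL-/- replicate 2 is the lowest KL-/- library in 6 panels.

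Levels were compared between genes as CPM per kilobase of counted exon. In WT muscle *Slc2a4* had the highest level, at 271 ± 26.1 CPM per kilobase (SD, n = 4). *Akt2* followed at 73.1 ± 4.62 and *Akt1* at 27.8 ± 2.10, then *Insr* at 15.2 ± 1.18 and *Irs1* at 13.0 ± 1.68. The ranges of *Insr* and *Irs1* overlapped across WT libraries, so these neighbours did not differ beyond their spread. *Pik3ca* had 9.81 ± 0.641, *Pik3r1* 5.47 ± 0.260 and *Irs2* 4.64 ± 1.93 CPM per kilobase, the last pair again with overlapping ranges. In KL-/- muscle the order of the mean levels was the same except that *Pik3r1*, at 11.7 ± 5.26 CPM per kilobase, stood above *Pik3ca*, at 9.12 ± 0.651. The ranges of that pair overlapped in KL-/- muscle, with *Pik3r1* between 6.20 and 17.6 and *Pik3ca* between 8.57 and 10.1 CPM per kilobase.

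**Figure D2:**
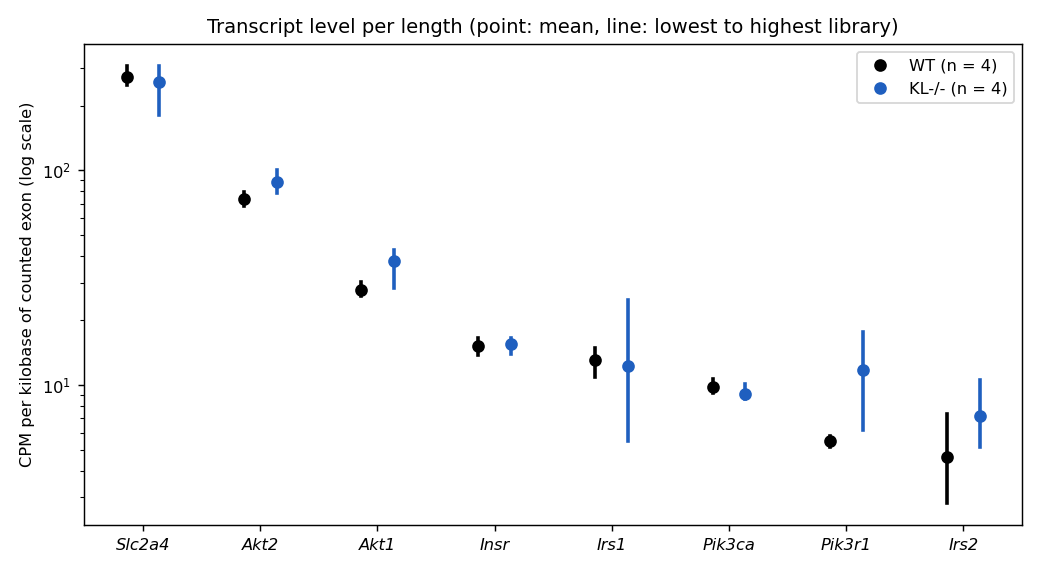
Transcript level per length of the 8 genes, in CPM per kilobase of counted exon on a log axis, with points at the group mean and lines from the lowest to the highest of 4 libraries (WT black, KL-/- blue). *Slc2a4* is highest at 271 in WT muscle and *Irs2* lowest at 4.64, and the lines of *Irs1* and *Pik3r1* lengthen in KL-/- muscle.

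*Insr*, the insulin receptor gene (mm10 chromosome 8, 3150922 to 3279617, minus strand), was not called. Its CPM in WT replicates 1 to 4 were 143, 129, 141 and 156, and in KL-/- replicates 1 to 4 they were 154, 131, 155 and 139. The groups overlapped throughout, and the log2 fold change was 0.03 ± 0.08 (SE), with a 95% interval from −0.15 to 0.20 and an FDR of 0.833. Its sign was not stable, with −0.09 when libraries were scaled to totals. The counted gene model ends short of the annotated 3′ end of *Insr* in GENCODE, and an antisense gene overlaps its span. Whether that gene shares counted exons with *Insr* was not checked, and the strand setting is not stated. *Igf1r*, which encodes the closely related receptor for insulin-like growth factor, was higher in KL-/- muscle. Its CPM spanned 19.1 to 28.3 in WT libraries and 26.0 to 49.4 in KL-/- libraries, a log2 fold change of 0.72 ± 0.19 (FDR = 0.0343), and it stayed called in 2 of the 8 fits that left out 1 library. *Insr* counts were 4.55 to 7.47 times the *Igf1r* counts in WT and 2.97 to 5.34 times in KL-/- libraries. This ratio within a library does not depend on scaling, and its log2 difference of −0.67 had a two-sided exact permutation p of 0.0571, or 0.0952 adjusted over the 5 ratios tested.

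The adaptor transcripts *Irs1* (chromosome 1, 82233105 to 82291439, minus strand) and *Irs2* (chromosome 8, 10986964 to 11008430, minus strand) had the largest standard errors of the 8 genes, and neither passed the test. *Irs1* encodes the main IRS protein of the insulin response in muscle. Its CPM were 115, 136, 125 and 100.4 in WT replicates 1 to 4, and 229, 90.5, 50.1 and 78.7 in KL-/- replicates 1 to 4. 3 KL-/- libraries thus lay below every WT library and KL-/- replicate 1 lay above all of them. The highest KL-/- library was 4.56 times the lowest, compared with 1.36 times in WT. This gave a log2 fold change of −0.09 ± 0.39, with a 95% interval from −0.95 to 0.78 and an FDR of 0.895. Without KL-/- replicate 1 it was −0.70 (FDR = 0.0535), and with any other library left out it lay between −0.16 and 0.16. KL-/- replicate 1 also had the highest adipocyte marker sum, 1138 CPM, where WT libraries spanned 718 to 860 CPM and KL-/- libraries 798 to 1138 CPM. KL-/- replicate 3, with the lowest *Irs1*, had the next highest sum, 1099 CPM. Most of that sum came from *Lpl* and *Fabp4*. *Adipoq* was at 9.90 and *Cidec* at 11.0 CPM in KL-/- replicate 1, against at most 5.15 and 4.58 CPM in the other libraries, no measured marker of the list was at 0, *Lep* and *Plin1* are not in the table, and 1 of the 6 measured, *Fabp4*, was called higher. The part of this in the *Irs1* value was not tested.

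*Irs2* had the fewest reads of the 8 genes, 297 to 1026 per library. Its CPM were 18.0, 15.7, 11.3 and 29.5 in WT replicates 1 to 4 and 31.5, 20.6, 42.5 and 20.6 in KL-/- replicates 1 to 4. All KL-/- libraries lay above WT replicates 1 to 3, and WT replicate 4 lay within the KL-/- range. Between genotypes the log2 fold change was 0.63 ± 0.31, with a 95% interval from −0.07 to 1.33 and an FDR of 0.196. Without WT replicate 4 it was 0.94 (FDR = 0.0600) and without KL-/- replicate 3 it was 0.38 (FDR = 0.452). *Irs2* counts were 0.0903 to 0.294 of *Irs1* counts in WT libraries and 0.138 to 0.848 in KL-/- libraries, highest in KL-/- replicate 3. The log2 difference of this ratio was 0.97 (two-sided exact permutation test, p = 0.229, adjusted p = 0.286). It was 0.45 without KL-/- replicate 3 and between 0.73 and 1.32 with any other library left out.

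The promoters of both adaptor genes are printed because *Irs2* in particular is known to be repressed by insulin through a FOXO-binding insulin response sequence near an E-box, which binds basic helix-loop-helix factors. The windows run from 250 bases before to 50 after the RefSeq start (GRCm38.p6, which is mm10) on the minus strand, at chr1:82291390-82291689 for *Irs1* and chr8:11008880-11009179 for *Irs2*. Capitals mark the insulin response sequence TGTTTTG and the E-box CACGTG.
Irs1: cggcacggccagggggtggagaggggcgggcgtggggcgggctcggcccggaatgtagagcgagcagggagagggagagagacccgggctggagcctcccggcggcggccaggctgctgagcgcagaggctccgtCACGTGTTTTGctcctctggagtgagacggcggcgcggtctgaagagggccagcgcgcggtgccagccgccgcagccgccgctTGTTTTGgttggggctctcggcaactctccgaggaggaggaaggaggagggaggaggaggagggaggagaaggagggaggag
Irs2: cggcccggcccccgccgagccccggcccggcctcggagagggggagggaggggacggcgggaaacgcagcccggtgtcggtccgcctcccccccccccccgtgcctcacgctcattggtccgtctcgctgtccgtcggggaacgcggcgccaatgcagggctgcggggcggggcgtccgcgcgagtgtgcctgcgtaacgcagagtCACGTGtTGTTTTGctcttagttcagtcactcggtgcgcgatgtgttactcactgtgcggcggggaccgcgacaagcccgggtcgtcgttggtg
In *Irs1*, TGTTTTG starts 111 and 32 bases before the start site, and the match at 111 shares bases with the E-box that starts at 115. In *Irs2*, TGTTTTG starts 37 bases before the start site and follows, with 1 base between, the E-box at 44. On either strand, TGTTTTG was found in 6.28% and CACGTG in 7.15% of all 32851 RefSeq windows. Both occurred in 134 windows (0.408%), and with the E-box first and overlapping or at most 10 bases away, as in these 2 genes, in 12 windows (0.0365%). That arrangement was looked for after the sequences had been seen. A match describes letters and not a bound site, and the RefSeq start of *Irs2* lies upstream of the start of the counted model.

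Of the PI3K subunit genes, the regulatory *Pik3r1* rose and the catalytic *Pik3ca* did not pass the test. *Pik3r1* (chromosome 13, 101680761 to 101768217, minus strand) encodes the main regulatory subunit, which stabilises the catalytic subunit and docks on IRS proteins, and shorter forms made from internal starts, which the gene counts do not separate. Its CPM were 37.9, 40.7, 42.5 and 39.9 in WT replicates 1 to 4 and 106, 45.7, 130 and 62.9 in KL-/- replicates 1 to 4. WT libraries were tightly grouped, with the highest 1.12 times the lowest, whereas the highest KL-/- library was 2.85 times the lowest. All 4 KL-/- libraries were above all WT libraries, KL-/- replicate 2 by the smallest margin. The log2 fold change was 1.10 ± 0.28, with a 95% interval from 0.48 to 1.72 and an FDR of 0.0306. The direction held with each library left out, with log2 fold changes from 0.83 to 1.32, but the FDR stayed under 0.05 in 2 of these 8 fits, without KL-/- replicate 2 (0.00445) or without KL-/- replicate 4 (0.0427), and reached 0.0752 in the others. Without KL-/- replicate 3, the library of the other batch date, the log2 fold change was 0.83 (FDR = 0.0693).

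*Pik3ca* (chromosome 3, 32436151 to 32468486, plus strand) encodes the catalytic subunit p110α that insulin signalling mainly uses. Its CPM were 81.9, 86.0, 95.5 and 86.5 in WT and 89.7, 79.3, 76.4 and 79.7 in KL-/- replicates 1 to 4. 3 KL-/- libraries lay below all WT libraries, and KL-/- replicate 1 lay within the WT range. The log2 fold change was −0.11 ± 0.07, with a 95% interval from −0.26 to 0.05 and an FDR of 0.324. The counted model starts downstream of the annotated 5′ end of the gene. *Pik3r1* counts were 0.445 to 0.473 of *Pik3ca* counts in WT libraries. In KL-/- replicates 1 to 4 they were 1.19, 0.576, 1.70 and 0.789 of *Pik3ca* counts, each above every WT library. The mean log2 ratio was −1.12 ± 0.04 in WT and −0.03 ± 0.68 in KL-/- muscles (SD, n = 4), a difference of 1.09, which was 0.82 without KL-/- replicate 3 and 1.34 without KL-/- replicate 2. The two-sided exact permutation p was 0.0286, the smallest that 4 against 4 libraries allows, and 0.0714 after adjustment over 5 ratios. *Pik3r1* by itself already separated the genotypes, so this ratio is not separate evidence.

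The *Pik3r1* window at chr13:101768168-101768467 (GRCm38.p6, minus strand), whose start matches that of the counted model, is shown because this gene had the largest difference of the 8.
Pik3r1: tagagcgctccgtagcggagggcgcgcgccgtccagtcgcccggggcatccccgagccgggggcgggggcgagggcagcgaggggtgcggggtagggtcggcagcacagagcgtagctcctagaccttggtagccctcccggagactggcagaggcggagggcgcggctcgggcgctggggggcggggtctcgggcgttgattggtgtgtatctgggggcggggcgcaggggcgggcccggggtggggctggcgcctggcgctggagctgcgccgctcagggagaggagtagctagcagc
It holds no insulin response sequence, E-box or forkhead core (spelled out with *Akt1*) on either strand, and neither does the RefSeq window of an internal *Pik3r1* start. This says only that these letters are not in these windows. The window of *Pik3ca* and the 4 windows of *Akt2* hold none of the 3 either.

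Among the AKT kinases, *Akt1* was higher and *Akt2*, the more abundant transcript, narrowly missed the threshold. *Akt1* (chromosome 12, 112653821 to 112674276, minus strand) encodes the isoform mostly tied to growth. Its CPM were 70.4, 80.9, 78.2 and 69.6 in WT replicates 1 to 4, and 115, 75.8, 108 and 107 in KL-/- replicates 1 to 4. 3 KL-/- libraries lay above all WT libraries, and KL-/- replicate 2 fell within the WT range. With all libraries the log2 fold change was 0.44 ± 0.12, with a 95% interval from 0.17 to 0.71 and an FDR of 0.0415. It was called in 1 of 8 fits with a library left out, that without KL-/- replicate 2 (log2 fold change 0.56, FDR = 0.00242), and the FDR reached 0.107 in the others. With library totals the log2 fold change was 0.32 (FDR = 0.0950).

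*Akt2* (chromosome 7, 27591560 to 27639453, plus strand) encodes the isoform most closely tied to glucose uptake. Its CPM were 257, 236, 222 and 232 in WT and 275, 255, 324 and 285 in KL-/- replicates 1 to 4. All but KL-/- replicate 2 lay above the highest WT library. Its log2 fold change was 0.26 ± 0.08, with a 95% interval from 0.08 to 0.45, and its FDR of 0.0602 did not pass. Without KL-/- replicate 2 the FDR was 0.0192, and DESeq2 gave 0.0245. *Akt2* counts were 2.83 to 3.65 times *Akt1* counts in WT libraries and 2.39 to 3.36 times in KL-/- libraries. The log2 difference in this ratio, −0.16, did not exceed the spread (two-sided exact permutation test, p = 0.286, adjusted p = 0.286), and it lay between −0.24 and −0.08 with a library left out, nearest to 0 without KL-/- replicate 1.

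The upstream *Akt1* window at chr12:112674835-112675134 (GRCm38.p6, minus strand) is shown because it is the 1 window of a member with the forkhead core TGTTTAC, in capitals, the letters FOXO factors prefer.
Akt1: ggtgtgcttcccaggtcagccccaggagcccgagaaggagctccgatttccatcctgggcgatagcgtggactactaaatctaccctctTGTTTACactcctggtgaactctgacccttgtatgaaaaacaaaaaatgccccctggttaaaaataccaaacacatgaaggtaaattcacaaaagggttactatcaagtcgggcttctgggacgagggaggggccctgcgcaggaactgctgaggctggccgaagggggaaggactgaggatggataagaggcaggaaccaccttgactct
The match starts 161 bases before this start, and 3.65% of all windows hold the letters on either strand. A second RefSeq window, whose start matches that of the counted model, holds none of the 3 motifs.

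*Slc2a4* (chromosome 11, 69942286 to 69948190, minus strand), the GLUT4 gene, was not called. Its CPM were 787, 709, 706 and 861 in WT replicates 1 to 4 and 864, 509, 757 and 785 in KL-/- replicates 1 to 4. KL-/- replicate 2 lay below all other libraries, and the other KL-/- libraries spread over the WT range and just above it. The log2 fold change was −0.07 ± 0.15 with an FDR of 0.773, and its 95% interval corresponds to 0.756-fold to 1.20-fold. Changes beyond these bounds in either direction lie outside the interval. Without KL-/- replicate 2 the log2 fold change was 0.08 (FDR = 0.538). In that library *Myh2*, the myosin of oxidative IIa fibres, was at 292 CPM, compared with 1169 to 5441 CPM in the other 7, and *Myh4*, the myosin of IIb fibres, was at its highest, 62800 CPM. Of the 4 fibre-type myosin genes measured, edgeR called none, and DESeq2 and limma-voom each called 1. In edgeR 1 had an unadjusted p under 0.05, *Myh4* (log2 fold change 0.46, FDR = 0.155), for which all KL-/- libraries lay above all WT libraries. The 4 genes summed to 54240 to 59750 CPM in WT libraries and 61880 to 74310 CPM in KL-/- libraries. The part of fibre type in the *Slc2a4* value was not tested.

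Among 7 hexose transporter genes measured, *Slc2a4* made up 93.9 to 94.7% of the summed CPM per kilobase in WT libraries and 91.55 to 94.5% in KL-/- libraries. *Slc2a1*, the gene of the basal transporter GLUT1, was at 7.93 to 9.31 CPM in WT and at 12.2, 6.78, 12.9 and 11.9 CPM in KL-/- replicates 1 to 4 (log2 fold change 0.33 ± 0.18, FDR = 0.234). Without KL-/- replicate 2 it was 0.51 (FDR = 0.00715). *Slc2a4* counts were 82.8 to 93.7 times *Slc2a1* counts in WT libraries and 58.5 to 75.1 times in KL-/- libraries, without overlap. The log2 ratio fell by 0.38 with an exact permutation p of 0.0286 (two-sided, again the lowest value possible), and the adjusted p over 5 ratios was 0.0714, so that it did not pass the correction.

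**Figure D3:**
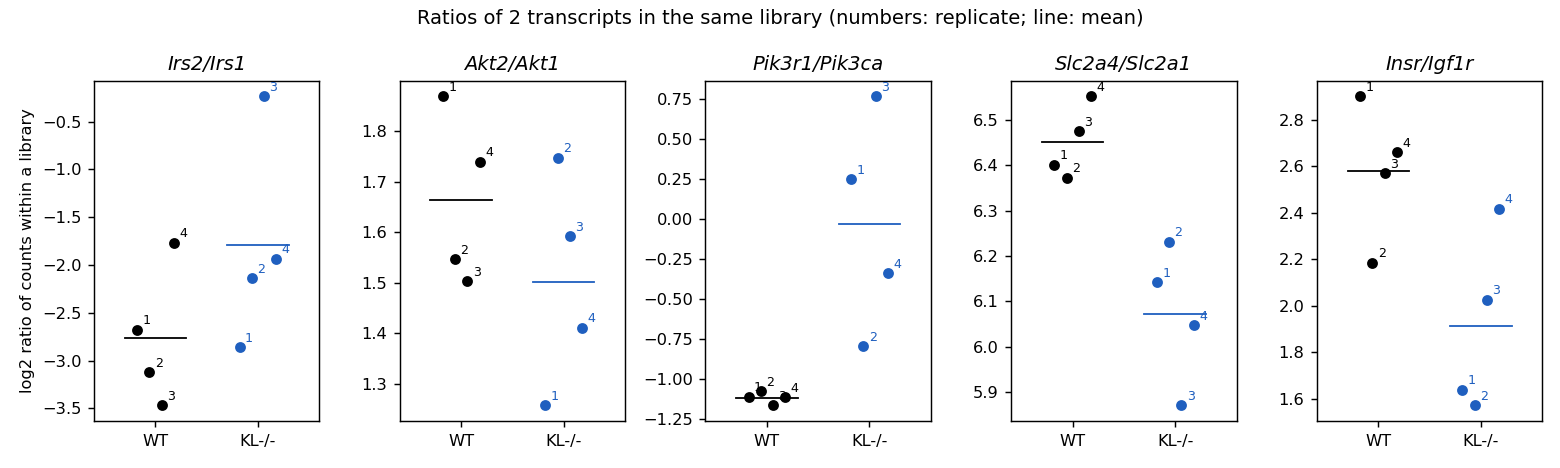
Log2 ratio of the counts of 2 genes in the same library for the 5 pairs tested, WT in black and KL-/- in blue, with replicate numbers and a line at each mean, each panel on its own axis. *Pik3r1*/*Pik3ca* and *Slc2a4*/*Slc2a1* separate the genotypes, with mean differences of 1.09 and −0.38, and the other 3 pairs overlap.

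**Figure D4:**
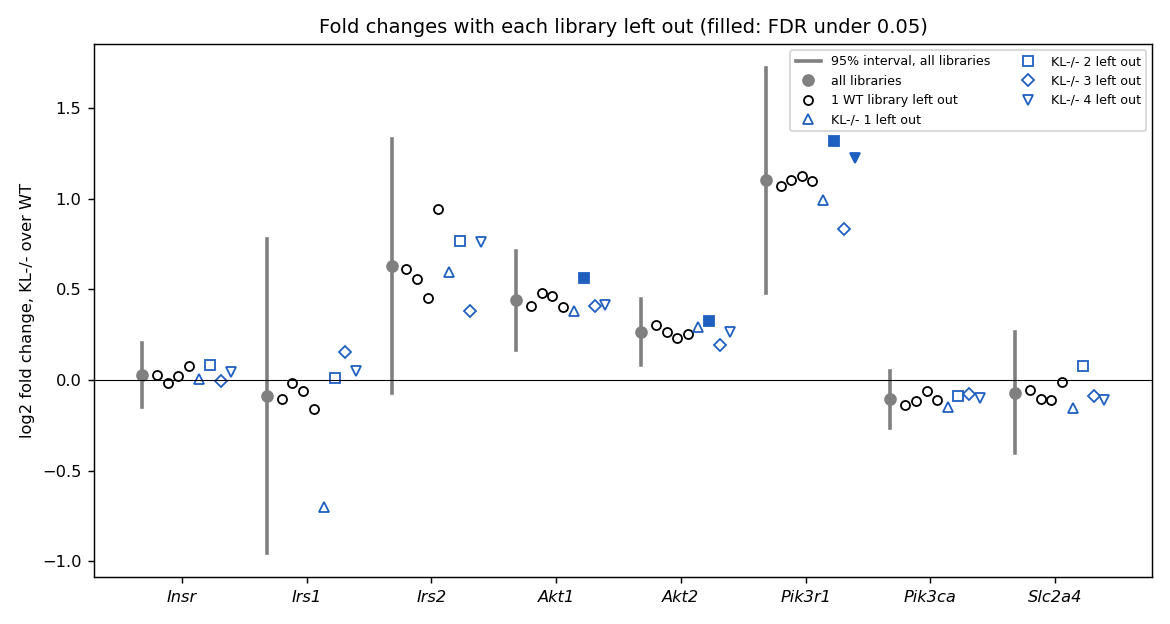
Log2 fold change of each gene with all libraries (grey point and 95% interval) and with each library left out in turn (black for WT, blue for KL-/-, filled where the FDR was under 0.05). *Pik3r1* stays between 0.83 and 1.32 with 2 filled points, *Akt1* and *Akt2* each have 1 filled point, without KL-/- replicate 2, and *Irs1* falls to −0.70 without KL-/- replicate 1.

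The wider pathway was described with 9 lists of 137 further genes, of which 130 were measured. Of these 130, 16 were higher, 6 were lower and 108 were not called, and with library totals the split was 9 higher and 18 lower. The share called, 16.9%, was near the 14.0% of all genes, and the median log2 fold change was 0.04. Among the called genes that the naming rule covers, 7 were called in every fit that left out 1 library and under all 11 other settings: *Pik3cd*, *Grb14*, *Inpp5k*, *Foxo4*, *Foxo6*, *Eif4ebp1* and *Sesn1*. The setting without a filter repeats the main fit, because the filter had kept all genes. Each of these 7 separated the genotypes in all 8 libraries, where 19.7% of all genes did. The 7 were picked by calls on the same libraries, so this separation is not separate evidence. How many of all genes stayed called in every such fit was not counted, so the 7 have no background to be set against.

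Around the receptor, 1 of 13 measured genes was called, *Igf1r*, and with library totals none was higher and 3 were lower. Of 9 other PI3K genes, 1 was lower, and with library totals 2 were lower. The shares called in these 2 lists were 7.69% and 11.1%, where 14.0% of all genes were called, and 20.9% with library totals. *Pik3cd*, which encodes the catalytic subunit p110δ of white blood cells, was at 26.2 to 30.2 CPM in WT and 17.1 to 21.6 CPM in KL-/- muscles (log2 fold change −0.52 ± 0.09, FDR = 0.00760). Macrophage markers summed to 24.6 to 56.2 CPM in WT and 21.3 to 38.9 CPM in KL-/- muscles, 2 of 6 were called lower (*Adgre1* and *Itgam*), none was at 0, and their part in *Pik3cd* was not tested. The second regulatory gene *Pik3r2* (log2 fold change −0.04 ± 0.10, FDR = 0.806) and the catalytic *Pik3cb* (−0.17 ± 0.12, FDR = 0.363) were not called. *Pdpk1*, the gene of the kinase that phosphorylates AKT at its activation loop, had a log2 fold change of 0.15 ± 0.06 (FDR = 0.111), although its groups did not overlap.

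Of 21 negative regulators, 2 were higher and 1 lower, and with library totals 1 was higher and 2 lower. The share called, 14.3%, was near the 14.0% of all genes, and with library totals 20.9% of all genes were called. *Grb14*, whose protein binds the active receptor and blocks its kinase, was at 34.3, 28.5, 31.0 and 33.1 CPM in WT and at 15.6, 23.4, 14.6 and 14.4 CPM in KL-/- replicates 1 to 4. No library overlapped, and the log2 fold change was −0.90 ± 0.15 (FDR = 0.00760). *Inpp5k*, a phosphatase gene whose product removes the PI3K lipid product, was at 39.7 to 41.2 CPM in WT and 47.4 to 59.9 CPM in KL-/- muscles (0.45 ± 0.08, FDR = 0.00760). *Prkcq*, the gene of a lipid-activated kinase known to act on IRS1, was also higher (0.46 ± 0.12, FDR = 0.0373), in 2 of 8 fits with a library left out. The adaptor gene *Grb10* had a log2 fold change of 0.13 ± 0.20 (FDR = 0.673).

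Of 14 genes for AKT substrates, *Foxo4* was higher and *Foxo6* lower, both FOXO transcription factor genes. The share called, 14.3%, was near the 14.0% of all genes. With library totals the counts were the same, where 20.9% of all genes were called. *Foxo4* was at 146 to 201 CPM in WT and 222 to 314 CPM in KL-/- muscles (0.61 ± 0.12, FDR = 0.0131), and *Foxo6* at 13.8 to 25.0 CPM and 8.72 to 13.2 CPM (−0.91 ± 0.19, FDR = 0.0158). *Foxo1*, the family member most studied in muscle wasting, was not called (0.32 ± 0.19, FDR = 0.278). Among 30 genes of GLUT4 vesicle traffic, 2 were higher and 3 lower, and with library totals 3 were higher and 8 lower. The share called was 16.7%, where 14.0% of all genes were called, and 20.9% with library totals. *Tbc1d4*, which encodes AS160, the RabGAP that AKT phosphorylates, was at 21.1 to 33.4 CPM in WT and 34.6 to 55.8 CPM in KL-/- muscles (0.77 ± 0.17, FDR = 0.0207), and was called in 5 of 8 fits with a library left out. Its paralog *Tbc1d1* was not called (−0.03 ± 0.15, FDR = 0.912). *Pak1*, a kinase gene downstream of RAC1, was higher (0.70 ± 0.17, FDR = 0.0280), at 55.9 CPM in KL-/- replicate 2 and at most 36.7 CPM in the other KL-/- libraries, and its log2 fold change was 0.49 without that library (FDR = 0.00830). *Exoc7*, for a subunit of the exocyst that tethers vesicles (−0.65 ± 0.17, FDR = 0.0336), and *Rab8b*, for a small GTPase of vesicle transport (−0.46 ± 0.10, FDR = 0.0207), were lower. *Pak1* and *Rab8b* were called in 3 and *Exoc7* in 2 of 8 fits with a library left out. The third lower gene was *Ralgapa1*, which the naming rule does not cover and which was named after its value was seen (−0.36 ± 0.09, FDR = 0.0277). In the same list *Doc2b*, for a calcium sensor of vesicle fusion, had the highest log2 fold change, 2.07 ± 0.61, at 0.490 to 0.601 CPM in WT and 0.941, 0.763, 4.77 and 2.30 CPM in KL-/- replicates 1 to 4. It did not pass (FDR = 0.0513) and was also named after its value was seen.

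None of 8 genes for hexose transport and capture was called by edgeR, DESeq2 or limma-voom, with 1 at an unadjusted p under 0.05 in edgeR. They include *Hk2*, the gene of the hexokinase that traps glucose in insulin-responsive muscle (0.23 ± 0.20, FDR = 0.462). Of all genes, edgeR called 14.0%. Of 12 genes for regulators of the GLUT4 gene, 3 were higher and none lower, where 14.0% of all genes were called. *Klf15*, which encodes a glucocorticoid-responsive transcription factor, was at 34.2 to 54.1 CPM in WT and 45.7 to 85.4 CPM in KL-/- muscles (0.73 ± 0.21, FDR = 0.0488). *Hdac5*, for a deacetylase that represses MEF2 (0.32 ± 0.07, FDR = 0.0243), and *Nfix*, for a nuclear factor I protein (0.28 ± 0.07, FDR = 0.0329), were the others. These 3 were called in 1 or 2 of 8 fits with a library left out. With library totals the list had none higher and 2 lower, where 20.9% of all genes were called. *Slc2a4* itself, as given above, was not called.

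Of 19 transcripts listed as FOXO targets, 7 were higher, none was lower and 12 were not called, where 14.0% of all genes were called. The median log2 fold change of the list was 0.24. With library totals 4 were higher and none lower, where 20.9% of all genes were called. Those not called include *Fbxo32* (0.17, FDR = 0.679), *Trim63* (0.14, FDR = 0.534) and *Pdk4* (−0.35, FDR = 0.711). The naming rule does not cover these 3, which were named after their values were seen. *Eif4ebp1*, which encodes a translation repressor, was at 38.7, 34.3, 29.2 and 32.1 CPM in WT and 69.4, 51.6, 76.7 and 68.9 CPM in KL-/- replicates 1 to 4 (0.99 ± 0.13, FDR = 0.00307). *Sesn1*, for a stress-induced inhibitor of mTORC1, was at 19.6 to 28.5 and 32.9 to 56.1 CPM (0.85 ± 0.16, FDR = 0.0126). *Cdkn1a*, for a cell cycle inhibitor (0.84 ± 0.24, FDR = 0.0457), and *Gadd45a*, for a stress-response protein (0.79 ± 0.18, FDR = 0.0237), were also higher, in 1 and 4 of 8 fits with a library left out. *Cdkn1a*, *Gadd45a* and *Sesn1* are p53 targets as well, and *Klf15* is counted in this list too. The list was compiled with results of these data known, so its count is not independent evidence of a direction.

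**Figure D5:**
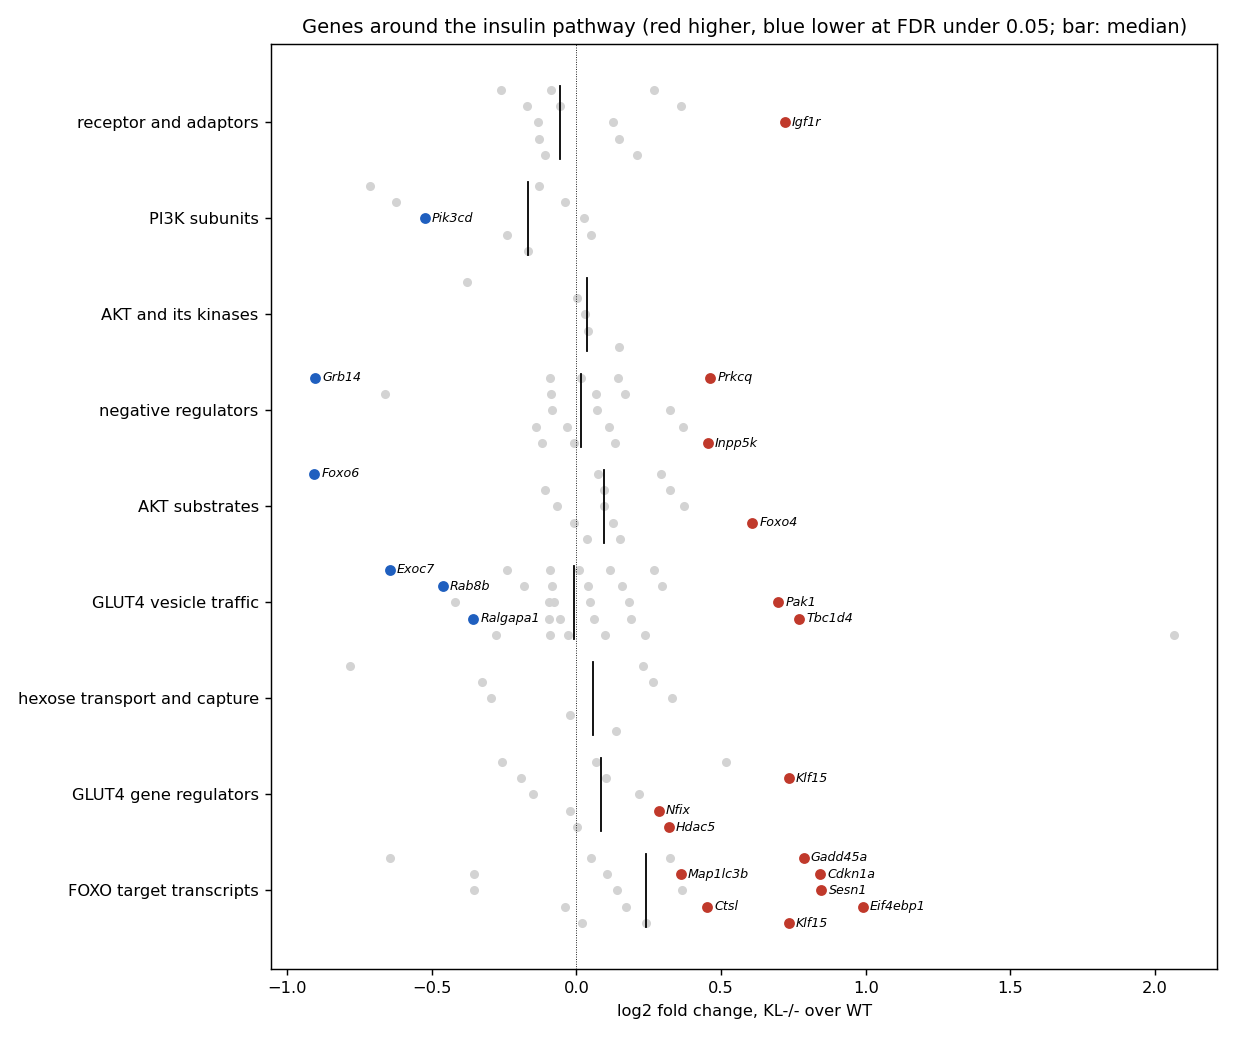
Log2 fold change of genes measured in each of the 9 lists around the pathway, 1 point per gene reported here, red for higher and blue for lower at an FDR under 0.05, grey otherwise, with a bar at each list's median; vertical offsets within a list carry no meaning. FOXO target transcripts have 7 red points and a median of 0.24, while the grey point at 2.07 is *Doc2b*.

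For each of the 8 genes, the gene with the most similar log2 CPM over the 8 libraries was taken from 11988 genes, as a description over libraries of both genotypes. The closest were *Prdx3* for *Akt2* (Pearson r = 0.997), *Gatad2a* for *Slc2a4* (0.996), *Stab2* for *Irs2* (0.985), *Rras2* for *Insr* (0.980) and *Mtpap* for *Irs1* (0.980). *Xpnpep1* for *Akt1* (0.973), *Ntn4* for *Pik3ca* (0.970) and *Tmbim1* for *Pik3r1* (0.969) followed. The genes were picked as the highest of many correlations, so no test is given. *Tmbim1* was the 1 of these 8 that was called, with a log2 fold change of 0.30 (FDR = 0.0267).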

How the data were processed

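Each library was made from 100 ng of RNA of 1 TA muscle sample, 4 WT and 4 KL-/-. Reads had been mapped by the authors with STAR (mm10), filtered for alignment quality and assigned to genes by featureCounts. The deposited table holds these raw counts. The annotation and the strand setting are not given in the sources used here. The methods name mRNA libraries and the labels total RNA.

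The 8 genes and all gene lists were chosen with earlier results of these data known. Genotypes were compared with edgeR 4.0.16 under R 4.3.3 (TMM factors, filterByExpr, which kept all 12551 genes, quasi-likelihood test, genotype as the only term, Benjamini-Hochberg adjustment over all genes), and the test was checked on simulated data. Its non-legacy form was chosen after both forms had been seen, and both called *Akt1* and *Pik3r1*. Ratios of counts within a library were compared by two-sided exact permutation tests over 70 relabelings. CPM are TMM-normalised, and the similarity search used log2 values (prior count 2) of genes averaging at least 0. Alternatives were RLE and upper quartile factors, library totals, a minimum of 10 counts, no filter, DESeq2 1.42.0, limma-voom (limma 3.58.1), a likelihood ratio test, a replicate block, each library left out, and, added after the data were seen, the legacy and robust fits. Named genes are the 8 members, up to 4 called genes per list by absolute log2 fold change, 13 genes named by list regardless of result, the gene most similar to each member, and cell type markers. Some list members are not reported here on their own, and counts over the lists still include them. Promoter windows of 6 of the 8 genes, 11 windows, were taken from RefSeq, and motifs were chosen after values were seen. *Insr* and *Slc2a4* had no window. Depth, between 20860262 and 29273758 counts per library, limits counting precision only.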

Additional observations from a re-analysis of the deposited data

Results flagged for a closer look

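In 82 groups of 4 libraries (genes named here and ratios of counts), 5 had a library whose gap to the next, as a share of the group's range of log2 CPM, was above Dixon's 95% critical value. Chance gives about 1 in 20 groups. KL-/- replicate 2 was the highest KL-/- library for *Grb14* (gap 0.838 of the range) and the lowest for *Slc2a1* (0.868). WT replicate 4 was the lowest WT library for *Exoc7* (0.858) and *Gadd45a* (0.896) and the highest for *Pik3cb* (0.942). None of the 8 insulin signalling genes had such a library at this threshold, although *Irs1* in KL-/- muscle spread from 50.1 to 229 CPM.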

How the results depend on the processing

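The directions of *Irs2*, *Akt1*, *Akt2*, *Pik3r1* and *Pik3ca* held under all 11 alternative settings and with each library left out, with log2 fold changes of 0.38 to 0.94, 0.32 to 0.56, 0.15 to 0.32, 0.83 to 1.32 and −0.22 to −0.06. Of these settings, the one without a filter repeats the main fit, because the filter had kept all genes. *Insr* changed sign with library totals (−0.090). With each library left out it ranged from −0.017 to 0.081, *Irs1* from −0.70 to 0.16, *Slc2a4* from −0.15 to 0.076, *Tbc1d1* from −0.13 to 0.12, *Pik3r2* from −0.13 to 0.011 and *Grb10* from −0.0079 to 0.28. Of the 8 genes, edgeR called 2, where 14.0% of all genes were called. The 2 became 1 with library totals (*Pik3r1*), 1 with limma-voom (*Pik3r1*) and 1 with the robust fit (*Akt1*). These settings called 20.9%, 14.1% and 13.75% of all genes. DESeq2 called 3 of the 8, against 19.6% of all genes. With the replicate block 0 were called (3 at an unadjusted p under 0.05), against 5.35% of all genes. With a library left out 0 to 3 were called, against 6.07% to 21.95% of all genes. The 22 calls in the pathway lists became 10 with the replicate block and 8 to 36 with a library left out, and the 1759 calls over all genes became 671 and 762 to 2755. DESeq2 called 2456 genes and library totals 2619. Without KL-/- replicate 2 calls rose to 2755, and without KL-/- replicate 3 they fell to 762. The causes were not tested, beyond the fewer libraries in each such fit. Replicate numbers did not pair the libraries (correlations of deviations −0.15, 0.18, −0.37 and 0.017), so the replicate block says nothing of effect size. The differences in the 5 count ratios kept their sign under every alternative run and moved by less than 1 SD, taken as the root mean square of the SDs of both genotypes, which is wide where KL-/- libraries spread. Genes on the other strand overlap the spans of *Insr*, *Irs1* and *Irs2*. Whether they share counted exons, where counts without strand could be affected, was not checked.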
